A study of Mus musculus with 6 samples.

Results

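The RAS-RAF-MEK-ERK cascade genes were 7 of the 22183 genes in the deposited table: Hras, Nras, Araf, Braf, Map2k1, Map2k2 and Mapk3. They were taken from the table by symbol, a rule that uses no measured value, though earlier results of these data were known when the symbols were listed. Each symbol had 1 row. RNA was sequenced from cells that the study describes as peritoneal endothelial cells (ECs). They came from wild-type male C57BL/6J mice, aged 8 to 10 weeks, that received daily intraperitoneal injections for 6 weeks. The saline group (3 mice) was the sham control, and the PD group (3 mice) received high-glucose peritoneal dialysis (PD) fluid. Each mouse gave 1 library. The methods of the study describe sorting of CD31+ CD45- cells from the mesentery by flow cytometry, whereas the sample labels describe magnetic sorting of CD31+ cells.

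In this cascade, an activated receptor tyrosine kinase recruits adaptor proteins and exchange factors that load RAS with GTP. GTP-bound RAS recruits RAF kinases to the membrane, RAF phosphorylates MEK, and MEK phosphorylates ERK, which acts on kinases in the cytoplasm and on transcription factors in the nucleus. In endothelium the cascade carries signals of VEGF and FGF receptors for proliferation, migration and survival. It is limited by RAS GTPase-activating proteins, by Sprouty and SPRED proteins and by phosphatases that remove the activating phosphates of ERK. The cascade is switched by GTP loading and phosphorylation, which transcript levels do not measure.

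The members encode each tier. Hras and Nras encode RAS GTPases, Araf and Braf encode RAF kinases, Map2k1 and Map2k2 encode MEK1 and MEK2, and Mapk3 encodes ERK1. On GRCm38, in the GENCODE M21 annotation, Hras lay at chr7:141189105-141194005 on the minus strand, Nras at chr3:103058285-103067914 on the plus strand, Araf at chrX:20797814-20860519 on the plus strand and Braf at chr6:39603237-39725463 on the minus strand. Map2k1 lay at chr9:64185770-64253631 on the minus strand, Map2k2 at chr10:81105915-81133975 on the plus strand and Mapk3 at chr7:126759601-126765819 on the plus strand.

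Promoter sequences of 300 bases, from 250 before to 50 after the transcription start, were found in RefSeq (GRCm38.p6) for 6 of the 7 genes. Those of the RAS pair, the MEK pair and Braf, whose fall was the deepest of the 7 genes, are shown. The groups lay apart in the count ratios of the RAS and MEK pairs. They also lay apart in that of the RAF pair, whose Araf promoter is not printed. How many other gene pairs lie apart in this way was not computed. Sequences run 5′ to 3′ on the strand of the gene. Capitals mark matches on either strand to the GC box GGGCGG, the ETS core CCGGAA, the E-box CACGTG, the cyclic AMP response element TGACGTCA, the CCAAT box CCAAT or the TATA box TATAAA.
Hras, chr7:141193955-141194254, minus strand: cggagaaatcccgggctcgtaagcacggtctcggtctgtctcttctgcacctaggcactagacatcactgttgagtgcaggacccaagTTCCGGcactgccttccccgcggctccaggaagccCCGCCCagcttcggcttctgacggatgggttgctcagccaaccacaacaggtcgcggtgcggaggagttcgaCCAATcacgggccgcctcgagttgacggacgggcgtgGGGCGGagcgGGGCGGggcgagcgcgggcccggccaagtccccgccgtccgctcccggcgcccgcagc
Nras, chr3:103058035-103058334, plus strand: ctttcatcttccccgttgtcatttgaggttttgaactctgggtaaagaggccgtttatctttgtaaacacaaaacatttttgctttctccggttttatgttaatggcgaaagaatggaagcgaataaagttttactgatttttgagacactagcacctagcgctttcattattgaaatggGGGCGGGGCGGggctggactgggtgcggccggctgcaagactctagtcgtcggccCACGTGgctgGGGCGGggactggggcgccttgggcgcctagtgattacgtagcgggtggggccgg
Map2k1, chr9:64253556-64253855, minus strand: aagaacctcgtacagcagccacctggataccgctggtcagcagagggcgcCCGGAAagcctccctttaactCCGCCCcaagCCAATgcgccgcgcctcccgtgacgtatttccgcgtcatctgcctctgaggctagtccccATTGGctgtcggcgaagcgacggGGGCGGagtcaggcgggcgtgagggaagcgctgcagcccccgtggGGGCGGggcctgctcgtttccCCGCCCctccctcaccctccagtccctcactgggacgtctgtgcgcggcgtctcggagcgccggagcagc
Map2k2, chr10:81105665-81105964, plus strand: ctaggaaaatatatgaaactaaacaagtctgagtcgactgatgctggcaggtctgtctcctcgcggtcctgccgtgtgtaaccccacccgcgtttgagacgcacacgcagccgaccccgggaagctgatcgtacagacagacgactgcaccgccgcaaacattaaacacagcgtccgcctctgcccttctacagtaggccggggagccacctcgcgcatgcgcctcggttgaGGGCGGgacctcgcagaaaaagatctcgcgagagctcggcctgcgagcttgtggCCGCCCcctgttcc
Braf, chr6:39725414-39725713, minus strand: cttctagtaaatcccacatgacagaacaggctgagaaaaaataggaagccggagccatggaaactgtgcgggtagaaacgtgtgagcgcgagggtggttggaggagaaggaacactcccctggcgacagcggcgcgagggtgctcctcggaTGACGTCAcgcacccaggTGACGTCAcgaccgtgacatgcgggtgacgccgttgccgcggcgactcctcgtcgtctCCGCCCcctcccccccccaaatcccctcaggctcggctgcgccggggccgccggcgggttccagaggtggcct

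The GC box was found in 35.7% of the 32851 mouse promoters of the same length, the ETS core in 14.9%, the E-box in 7.15%, the cyclic AMP response element in 1.79%, the CCAAT box in 37.4% and the TATA box in 13.6%. The Hras promoter held 3 GC boxes, 1 ETS core and 1 CCAAT box, and the Nras promoter held 3 GC boxes, 2 of which overlapped by 1 base within 1 capital run, and 1 E-box. The Map2k1 promoter held 4 GC boxes, 1 ETS core and 2 CCAAT boxes, while the Map2k2 promoter held 2 GC boxes only. The Braf promoter held 2 cyclic AMP response elements and 1 GC box. The Araf promoter, not printed, held 3 CCAAT boxes and 1 ETS core. None of the 6 promoters held the TATA box letters. GC content was 69.0% in the Hras and Map2k1 promoters, 65.0% in Braf, 60.7% in Map2k2, 52.3% in Nras and 52.0% in Araf, against a median of 52.7% over all promoters. These matches describe letters and no binding was measured.

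Between 21973426 and 26374292 reads were counted on genes per library. Counts were scaled by TMM and are given as CPM, the count per scaled library size. Fold changes compare PD with saline by edgeR's quasi-likelihood test, and p-values were adjusted by the Benjamini-Hochberg method over all 14005 genes that passed the filter on low counts, with a threshold of 0.05. The 12 endothelial markers were all detected, with a summed level of 1036 to 1042 CPM in saline and 1674 to 1774 CPM in PD libraries, and 11 of them were called higher. Leukocyte markers were abundant in both groups, and the pan-leukocyte sum exceeded the endothelial sum in every library. The summed level of 5 pan-leukocyte markers, Ptprc (CD45) among them, was 6355 to 6615 CPM in saline and 5139 to 5220 CPM in PD, with 3 called lower and 1 higher. The sums of 6 B cell markers (5827 to 6104 CPM in saline, 2767 to 2803 CPM in PD, 6 called lower) and 6 T cell markers (2206 to 2279 and 1609 to 1781 CPM, 4 called lower) were lower in PD. Macrophage markers were higher (8 of 8 called, 2078 to 2208 CPM in saline and 8434 to 9135 CPM in PD), and so were neutrophil (4 of 5 called, 16.8 to 20.2 and 191 to 205 CPM) and mural markers (6 of 6, 272 to 294 and 422 to 470 CPM). The sums of 6 fibroblast markers (75.7 to 79.4 and 715 to 782 CPM), 7 mesothelial markers (14 to 17.2 and 149 to 174 CPM) and 10 pancreatic acinar markers (4.41 to 10.5 and 9587 to 13536 CPM) were higher, each marker being called. No marker of these lists was at 0 in all libraries. The part of this shift in the values below was not tested, and in bulk libraries fewer cells of a type and less RNA per cell cannot be told apart.

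All 7 genes passed the filter, and the PD fluid libraries lay apart from the saline libraries in CPM for each of them, 3 higher and 4 lower. Of all genes tested, 65.6% were apart in this way, 34% higher and 31.6% lower. The tiers did not move as 1 unit. Nras, Araf, Braf and Map2k1 fell, Mapk3 rose, and Hras and Map2k2 were higher without passing the threshold. The 5 genes called compare with 58.9% of all genes (31.1% called higher and 27.8% lower). The median log2 fold change of the 7 genes was -0.28, against 0.02 over all genes tested. Likewise 1 of the 7 genes was called higher and 4 lower with DESeq2 (57.1% of all genes called), limma-voom (59.5%), no filter on low counts (47.8%), upper-quartile scaling (59.5%) and the replicate number as a block (56.5%). With limma on log2(FPKM + 1), 2 were called higher and 3 lower (55.9% of all genes called). The directions of Hras, Map2k2 and Mapk3 depended on the scaling, as given below.

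**Figure D1:**
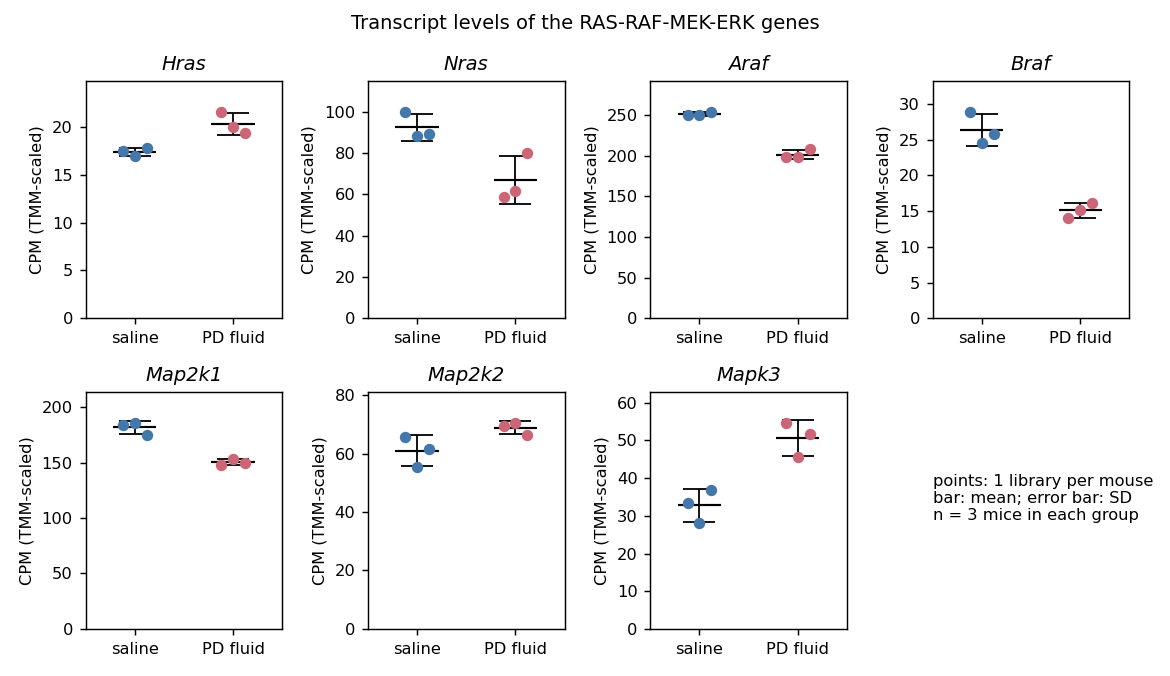
CPM (TMM-scaled, linear axes from 0) of each of the 7 genes in the saline and PD fluid groups. Each point is 1 library, bars are means and error bars are SD (n = 3). Braf is lower in all PD libraries (14.1 to 16.1 CPM) than in all saline libraries (24.5 to 28.9 CPM), and Mapk3 is higher (45.5 to 54.7 against 28.1 to 36.9 CPM).

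At the RAS tier, Nras measured 100, 88.3 and 89.5 CPM in saline replicates 1 to 3 and 59.0, 61.8 and 80.2 CPM in PD replicates 1 to 3. All PD libraries were below all saline libraries, but PD replicate 3 stood closer to saline than the other PD libraries did. Nras fell by 27.8%, from 92.7 ± 6.61 to 67.0 ± 11.5 CPM (SD, n = 3), a log2 fold change of -0.47 (SE 0.11, edgeR adjusted p = 0.00394). By limma on log2(FPKM + 1) Nras did not pass (log2 fold change -0.08, adjusted p = 0.52), as described below. Hras measured 17.5, 17.0 and 17.8 CPM in saline and 21.6, 20 and 19.4 CPM in PD. The groups did not overlap, and the spread was wider in PD (17.4 ± 0.439 against 20.3 ± 1.14 CPM, SD, n = 3). The log2 fold change of Hras was 0.22 (95% CI 0.00 to 0.44) and did not pass (edgeR adjusted p = 0.074).

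At the RAF tier, Braf, the RAF isoform with the highest basal kinase activity, measured 28.9, 24.5 and 25.8 CPM in saline and 14.1, 15.1 and 16.1 CPM in PD. The highest PD library lay far under the lowest saline library. Braf fell by 42.8%, with a log2 fold change of -0.81 (SE 0.11, edgeR adjusted p = 8.91e-05). Araf, whose product has weaker kinase activity, measured 250, 250 and 254 CPM in saline and 198, 198 and 208 CPM in PD. Replicates of Araf were tight in both groups (251 ± 1.93 and 201 ± 5.63 CPM, SD, n = 3) and well apart. Araf fell by 19.9%, a log2 fold change of -0.32 (SE 0.06, edgeR adjusted p = 0.000633).

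At the MEK tier, Map2k1 measured 184, 186 and 175 CPM in saline and 148, 153 and 150 CPM in PD. The groups did not overlap and were each narrow. Map2k1 fell by 17.4%, a log2 fold change of -0.28 (SE 0.06, edgeR adjusted p = 0.00209). Map2k2 measured 65.8, 55.3 and 61.7 CPM in saline and 69.6, 70.6 and 66.3 CPM in PD. The lowest PD value, in replicate 3, was just above the highest saline value, in replicate 1. Its log2 fold change was 0.18 (95% CI -0.00 to 0.35, edgeR adjusted p = 0.0806).

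At the ERK tier, Mapk3 measured 33.3, 28.1 and 36.9 CPM in saline and 54.7, 45.5 and 51.8 CPM in PD. Every PD library exceeded every saline library. Mapk3 rose by 54.4%, from 32.8 ± 4.45 to 50.7 ± 4.69 CPM (SD, n = 3), a log2 fold change of 0.63 (SE 0.11, edgeR adjusted p = 0.000663). It was the only gene of the 7 called higher, and this direction turned to -0.42 when the libraries were scaled to the endothelial markers.

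Because the endothelial markers were higher in PD, the values were also computed relative to them. The 12 markers did not move alike. Their log2 fold changes by TMM scaling ran from 0.13 for Pecam1 (CD31), the only one not called, to 1.65 for Tie1. The size of the shift below therefore depends on the markers averaged, and other sets were not tested. With library sizes set so that the 12 endothelial markers had the same mean log2 CPM in every library, the median log2 fold change over all genes moved to -1.03, and 81.5% of all genes were called, 74% lower and 7.45% higher. On this scale Hras (-0.83), Nras (-1.51), Araf (-1.37), Braf (-1.85), Map2k1 (-1.33), Map2k2 (-0.87) and Mapk3 (-0.42, edgeR adjusted p = 0.00257) were all called lower. This scaling shifts all genes by about the same amount, so differences between the 7 genes and their distance from the median of all genes are fixed by its construction. Relative to that median, Hras was at 0.20, Map2k2 at 0.16, Mapk3 at 0.61, Nras at -0.48, Araf at -0.34, Braf at -0.82 and Map2k1 at -0.30.

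**Figure D2:**
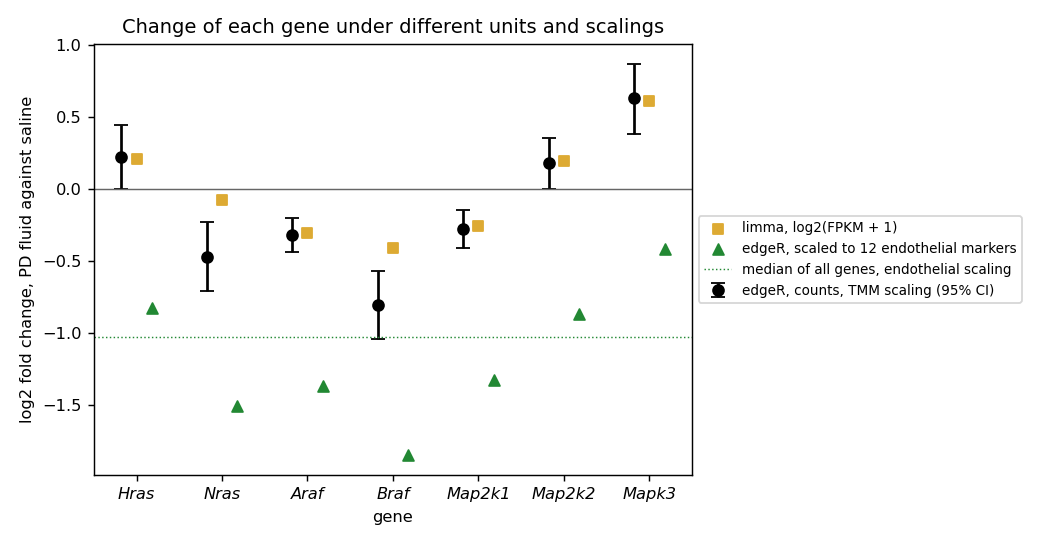
Log2 fold change of PD fluid against saline for the 7 genes, by edgeR on counts (circles, with 95% CI), by limma on log2(FPKM + 1) (squares) and by edgeR with libraries scaled to 12 endothelial markers (triangles). The dotted line is the median of all genes on the endothelial scale (-1.03), which lies below the triangles of Hras, Map2k2 and Mapk3 and above those of the other genes.

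The ratio of 2 paralogs within a library does not depend on how libraries are scaled. The log2 ratio of Nras to Hras counts was 2.52, 2.38 and 2.33 in saline and 1.45, 1.63 and 2.05 in PD. It was lower in every PD library, by 0.70 on average, so that Nras had 5.01 to 5.74 times the counts of Hras in saline and 2.73 to 4.13 times in PD. The log2 ratio of Braf to Araf was -3.11, -3.35 and -3.30 in saline and -3.81, -3.71 and -3.69 in PD. It was lower in every PD library, with a mean difference of -0.48. The log2 ratio of Map2k2 to Map2k1 was -1.48, -1.75 and -1.51 in saline and -1.08, -1.12 and -1.17 in PD. It was higher in every PD library, with a mean difference of 0.45. From FPKM values the differences were smaller for Nras to Hras (-0.31) and Braf to Araf (-0.23), each with overlapping groups (p = 0.2, two-sided exact permutation test). The FPKM difference for Map2k2 to Map2k1 was 0.46 without overlap. Each of the 3 count ratios had p = 0.1 in a two-sided exact permutation test (0.1 after Benjamini-Hochberg adjustment over the 3), which is the smallest p that 3 mice against 3 allow. Of single genes tested, 65.6% had groups apart in CPM. The share of other gene pairs whose ratios are apart was not computed, so the separation is not shown to be particular to these pairs.

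**Figure D3:**
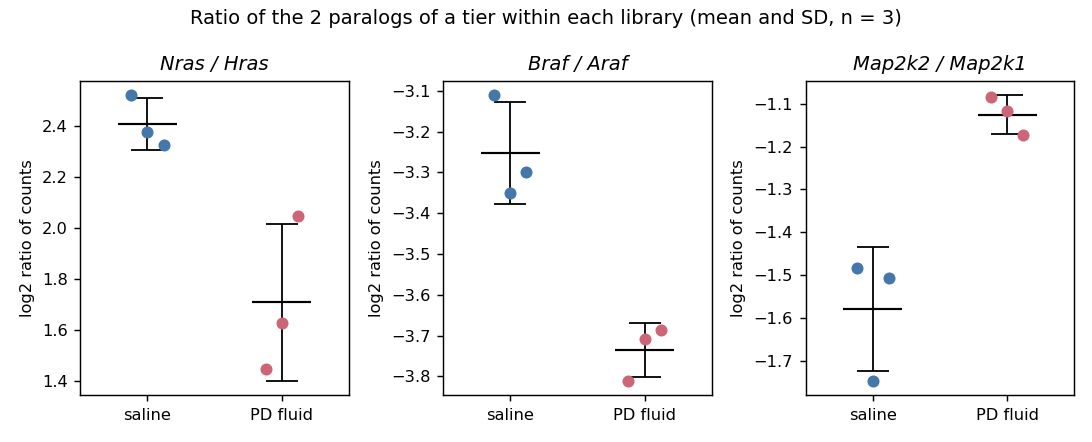
Log2 ratio of the counts of 2 paralogs in each library (points), with group mean and SD (bars, n = 3), for the RAS, RAF and MEK tiers. The vertical axes differ and do not start at 0. In each pair the saline and PD fluid groups are apart, with mean differences of -0.70, -0.48 and 0.45. The share of other gene pairs apart in this way was not computed. From FPKM values the groups of the RAS and RAF pairs overlap.

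Levels can be compared between genes only per transcript length, for which the deposited FPKM values (fragments per transcript length and library size) were used. In saline, Araf was the highest of the 7 genes (115 ± 1.99 FPKM), followed by Map2k1 (74.3 ± 1.78), Map2k2 (37.9 ± 5.76), Nras (25.2 ± 2.64), Mapk3 (18.2 ± 2.62), Hras (14.1 ± 0.716) and Braf (3.71 ± 0.0939 FPKM, SD, n = 3 throughout). No neighbours in this order overlapped in saline. Divided instead by the length of all annotated exons, CPM per kilobase in saline placed Map2k1 (53.6) before Araf (38.4) and Map2k2 (10.8) after Mapk3 (14.5). In PD the order was Araf (92.1 ± 1.88 FPKM), Map2k1 (61.8 ± 1.6), Map2k2 (43.1 ± 3.43), Mapk3 (28.3 ± 2.96), Nras (23.7 ± 3.13), Hras (16.5 ± 0.978) and Braf (2.55 ± 0.336). Mapk3 and Nras thus exchanged places, although their PD ranges (25.4 to 31.3 and 21.1 to 27.2 FPKM) overlapped. Within the MEK pair, Map2k2 made up 33.7 ± 3.44% of the summed FPKM in saline and 41.1 ± 1.35% in PD (SD, n = 3), without overlap. Within the RAF pair, Braf made up 3.14 ± 0.114% and 2.69 ± 0.378%, and the groups overlapped. Within the RAS pair, Nras made up 64.1 ± 1.96% and 58.9 ± 4.45%, which also overlapped.

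The FPKM values and the counts gave different answers for Nras. The counts fell, but the FPKM of Nras was 28.2, 23.2 and 24.1 in saline and 21.1, 22.9 and 27.2 in PD. These groups overlapped. Counts per unit of FPKM, divided by the median of all genes in the library, follow the transcript length that the FPKM calculation assumed. For Nras this quantity was 1.39, 1.47 and 1.46 in saline and 1.12, 1.06 and 1.12 in PD. It was lower in every PD library, by 23.5%. Groups apart in this quantity were common (42.5% of 12108 genes), but the size of the difference was not. The log2 difference of -0.39 for Nras was larger in size than that of 99.1% of these genes, whose median absolute log2 difference was 0.01. Nras had 9 annotated transcripts, of which the 5 protein-coding ones ran from 276 to 4470 bases. Transcripts were not quantified separately here, so a change in their mixture was not tested.

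For Braf, counts per unit of FPKM were 3.02, 2.5 and 2.8 in saline and 1.94, 2.52 and 2.6 in PD. The groups overlapped, with PD replicate 1 the lowest. Braf was lower by either unit, with a log2 fold change of -0.41 by limma on log2(FPKM + 1) (adjusted p = 0.0114) against -0.81 from the counts. Braf measured 3.71 ± 0.0939 FPKM in saline and 2.55 ± 0.336 FPKM in PD (SD, n = 3). At this level the pseudocount of 1 also shrinks the fold change, so the gap is not one of units alone. For the other 5 genes the log2 difference of counts per unit of FPKM was within 0.01 of 0, and their fold changes by FPKM were close to those from the counts. Hras then passed the threshold (log2 fold change 0.21, limma adjusted p = 0.0451).

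**Figure D4:**
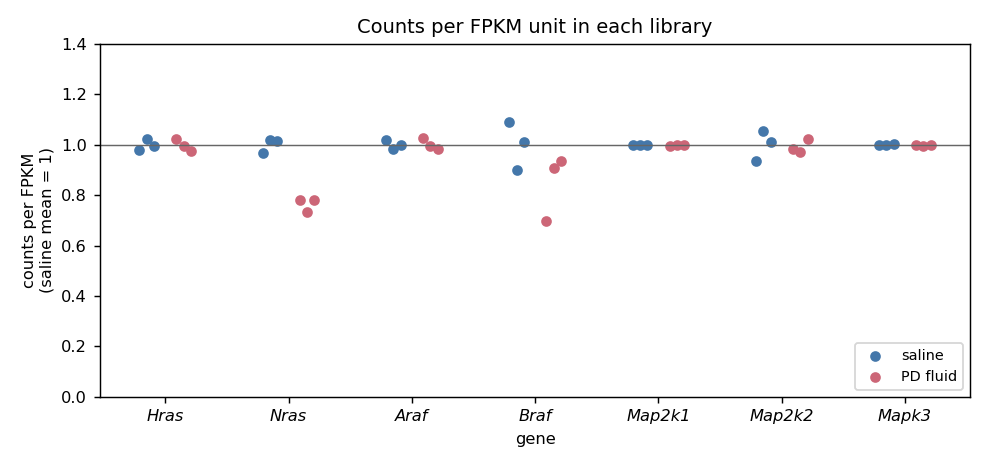
Counts per unit of FPKM for each gene and library, with the saline mean of each gene set to 1. Points are libraries. The 3 PD libraries of Nras lie together below its 3 saline libraries (a mean 23.5% lower), while the points of Hras, Araf, Map2k1, Map2k2 and Mapk3 lie near 1. Groups were apart in this quantity, mostly by little, for 42.5% of 12108 genes.

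The reads of the 7 genes were checked for other sources. Braf shared 146 exonic bases with Ndufb2, a complex I subunit gene on the opposite strand, and Ndufb2 measured 44.5, 41.4 and 38.3 CPM in saline and 32, 33.6 and 39.0 CPM in PD. The strand setting of the counting is not given in the sources used here, so reads in these bases cannot be assigned to 1 of both genes. Araf shared 9 exonic bases with Syn1, which had at most 61 counts in any library. Of all runs of 50 bases in the annotated transcripts of a gene, between 0.0% (Hras) and 1.13% (Araf) also occurred in another gene. Map2k1 and Map2k2 shared 7 such runs with each other.

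Among the pathway genes, the closest profile to each of the 7 genes was sought by root mean square distance of log2 CPM, centred on the gene's own mean, over 6 libraries and 108 candidates. Some candidate is always closest, and whether these distances are unusually small was not tested. Nras was closest to Lamtor2 (0.0472), a subunit of the Ragulator scaffold, and Lamtor2 measured 144, 130 and 130 CPM in saline and 83.7, 88.3 and 106 CPM in PD. Both genes had their highest PD value in replicate 3. Braf was closest to Rps6ka5 (0.11), which encodes the kinase MSK1, Araf to Grb2 (0.0544), an adaptor, and Map2k1 to Iqgap1 (0.0476), a scaffold. Hras was closest to Rps6ka1 (0.0592), which encodes the kinase RSK1, Map2k2 to Shc1 (0.0493), an adaptor, and Mapk3 to Rasa4 (0.0829), a GTPase-activating protein.

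Genes that act on, beside or after the cascade were grouped in 12 lists, which include further isoforms of the tiers and parallel branches. The lists held 117 genes in all, of which 108 were tested. Of these, 55 were called higher and 19 lower, with a median log2 fold change of 0.43, against 31.1% called higher, 27.8% lower and a median of 0.02 over all genes. Kdr, Flt1, Tek and Tie1 are on these lists and also among the endothelial markers. Scaled to the endothelial markers, 13 pathway genes were called higher and 69 lower, against 7.45% and 74% of all genes. The counts for each list below are to be read against these shares, and on the endothelial scale few genes of a short list would be called higher at the share of all genes. Values in the next paragraphs are log2 fold changes by TMM scaling, and each gene named as higher or lower had an edgeR adjusted p under 0.05.

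Of 6 further isoforms of the tiers, 2 were higher and 2 lower (median -0.09). Rras (0.81) and Mras (0.80), RAS-related GTPases, were higher, whereas Rras2 (-0.23) was lower like Nras. Of 7 exchange factors tested, which activate RAS, 2 were higher and 3 lower (median -0.06), beside 31.1% and 27.8% of all genes. Rasgrp3 measured 309, 359 and 321 CPM in saline and 159, 166 and 174 CPM in PD (-0.99). Rasgrp4 (0.86) and Rasgrf2 (0.63) were higher. Of 9 GTPase-activating proteins, which switch RAS off, 3 were higher and 3 lower (median -0.06), with Dab2ip (1.32) and Rasal2 (1.27) higher and Nf1 (-0.94) lower. On the endothelial scale Rras (-0.24), Mras (-0.24), Rasgrp4 (-0.18) and Rasgrf2 (-0.42) were below 0. Dab2ip (0.28, edgeR adjusted p = 0.118) and Rasal2 (0.22, edgeR adjusted p = 0.236) did not pass there. Of the 9 GTPase-activating proteins, 0 were called higher and 7 lower on that scale, Nf1 (-2.00) among them, beside 74% of all genes lower.

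Of 12 adaptors tested, 4 were higher and 2 lower (median 0.41). Gab2 (1.94) and Gab1 (1.70), docking proteins for receptor signalling, were higher and stayed so on the endothelial scale (0.90 and 0.66), whereas Crk (0.57) turned to -0.49 there. Of 10 scaffolds and modulators, 5 were higher and 2 lower (median 0.17). Pea15a (0.69), whose product holds ERK in the cytoplasm, measured 212, 203 and 235 CPM in saline and 335, 345 and 369 CPM in PD. Cnksr3 (0.68) and Cnksr1 (1.98), the latter under 1 CPM in every library, were also higher. Pea15a was -0.35 and Cnksr3 -0.36 on the endothelial scale, where 8 of the 10 were called lower (74% of all genes). Cnksr1 (0.96) did not pass there.

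Among inhibitors, 3 of 5 Sprouty and SPRED genes tested were higher and 0 lower (median 0.79). Spred1 (1.42), which brings Nf1 protein to RAS, measured 15, 9.45 and 14.3 CPM in saline and 35.5, 38.7 and 29.9 CPM in PD. Spry1 (0.97) and Spry4 (0.79) were higher by TMM scaling, but were -0.07 and -0.27 on the endothelial scale, on which Spred1 was 0.38. Of 9 dual-specificity phosphatases, which dephosphorylate MAP kinases, 6 were higher and 1 lower (median 0.39). Dusp1 (1.07) measured 1295, 1370 and 1313 CPM in saline and 2573, 2777 and 3005 CPM in PD, and Dusp8 (1.12) and Dusp2 (0.84) were also higher. On the endothelial scale 6 of the 9 phosphatases were called lower, and Dusp1 (0.02), Dusp8 (0.09) and Dusp2 (-0.22) did not pass.

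Downstream of ERK, 3 of 7 kinases were higher and 1 lower (median 0.36). Rps6ka4 (1.06) and Rps6ka2 (0.80) were higher and Rps6ka5 (-0.70) was lower. Rps6ka4 (0.01) and Rps6ka2 (-0.24) did not pass on the endothelial scale. Of 9 genes used as transcriptional readouts of ERK activity, 6 were higher and 1 lower (median 0.47), with Epha2 (1.81), Spry4 (0.79) and Phlda1 (0.73) the most changed. Spry2, Spry4, Dusp4 and Dusp6 in this list are also counted in the Sprouty and phosphatase lists above. Dusp6 (0.39), a phosphatase specific for ERK, and Dusp4 (-0.43), a nuclear phosphatase, went opposite ways, though the groups of Dusp4 overlapped in CPM. On the endothelial scale 1 readout, Epha2 (0.78), was called higher and 7 lower, Phlda1 (-0.32) among them. Of 7 ETS and SRF transcription factors, 3 were higher and 2 lower (median 0.11). Erf (2.06), a repressor inactivated by ERK, and Elk1 (0.96), an activator phosphorylated by ERK, were higher. Erf was near the floor in saline (0.156, 0.507 and 0.248 CPM), and neither gene passed on the endothelial scale (1.00 and -0.09). Ets1 (-0.99) measured 1457, 1367 and 1395 CPM in saline and 663, 684 and 777 CPM in PD. On the endothelial scale 5 of the 7 downstream kinases and 5 of these 7 factors were called lower (74% of all genes).

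Upstream, 17 of 18 receptor tyrosine kinase genes were higher and 0 lower, with a median of 1.33. Of the 18, 7 are also on the cell type marker lists (Kdr, Flt1, Tek and Tie1 endothelial, Pdgfra fibroblast, Pdgfrb mural, Csf1r macrophage). Of the other 11, 10 were higher (median 1.2). Pdgfra (2.35), Fgfr1 (2.19) and Flt4 (2.11), the receptor for VEGF-C, changed most. Fgfr1 measured 12.6, 6.55 and 10.8 CPM in saline and 54.5, 46.0 and 36.3 CPM in PD. On the endothelial scale 8 of the 18 receptors were called higher and 4 lower, with a median of 0.28. Kdr, Flt1, Tek and Tie1 are among the markers that set this scale, so their values on it are partly fixed by construction. In the parallel p38, JNK and ERK5 branches, 3 of 13 genes were higher and 3 lower (median 0.14). Among them were Mapk13 (2.13), Map2k3 (0.49) and Mapk11 (-0.68). Mapk13 was near the floor in saline (0.586, 0.184 and 0.331 CPM). Scaled to the endothelial markers, 1 of the 13, Mapk13 (1.10), was called higher. On that scale 11 were called lower, Map2k3 (-0.56) and Mapk11 (-1.73) among them. Between the same groups the mean marker sums differed by 1.65 times (PD over saline) for endothelial, 1.58 for mural, 4.1 for macrophage, 9.62 for fibroblast, 10.2 for mesothelial, 10.5 for neutrophil and 1611 for acinar markers, and by 0.465 for B cell and 0.76 for T cell markers. Their part in the changes of these lists was not tested.

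**Figure D5:**
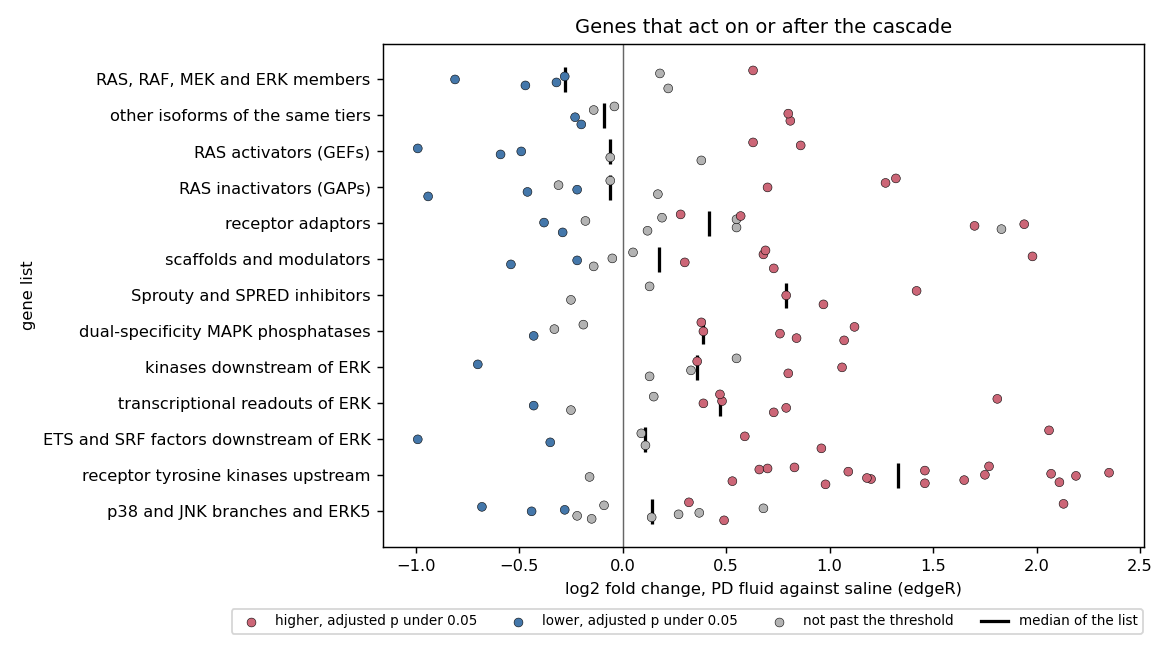
Log2 fold change of PD fluid against saline (edgeR, TMM scaling) for the 7 genes and for the tested genes of 12 pathway lists. Points are genes (red higher, blue lower, grey not past an adjusted p of 0.05) and vertical bars are medians. The receptor tyrosine kinases have the highest median (1.33) and the RAS, RAF, MEK and ERK genes the lowest (-0.28). On the endothelial scale most points would lie below 0.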

How the data were processed

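RNA was measured in cells that the study describes as peritoneal ECs, from 3 saline and 3 PD mice grouped by the labelled treatment. Libraries were made from poly(A) RNA and sequenced on a NovaSeq instrument. The authors deposited read counts per gene and library without normalization, and FPKM values that the authors computed per library from the same reads. The same table holds the authors' group means, log2 ratios, p-values and FDR, which were not used. The submitters' processing notes name fastp 0.18.0, Bowtie2 2.2.8, HISAT2, StringTie 1.3.1 and RSEM. The genome build, the annotation and the strand setting are not given in the sources used here, so positions are from GRCm38 with GENCODE M21, to which 22128 identifiers matched.

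Counts were filtered with filterByExpr, scaled by TMM and tested with edgeR 4.0.16 (R 4.3.3), without covariates, and p-values were adjusted by Benjamini-Hochberg. The study's methods name limma, and limma 3.58.1 (voom) and DESeq2 1.42.0 served as alternatives, as did no filter, upper-quartile scaling, scaling to 12 endothelial markers, the replicate number as a block, each library left out in turn, and limma on log2(FPKM + 1) with a pseudocount of 1. Paralog ratios used counts plus 0.5 and an exact permutation test (scipy 1.17.1). Counts per FPKM were taken for genes with more than 20 counts in every library. Only the main edgeR fit was tested on simulated counts. It recovered 22% of genes changed 1.25-fold, 64% at 1.5-fold, 84% at 2-fold and 100% at 4-fold, with 9 false calls among 142. Small changes can therefore be missed. Total counts of 21973426 to 26374292 per library limit the precision of genes with few counts.

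The members and lists were chosen with earlier results of these data known. The genes named are the 7 members, the up to 3 genes of each list with the largest absolute log2 fold change among those that passed the threshold, averaged 10 counts or more and had groups apart, and the closest profile to each member. Dusp4, Dusp6, the receptors that are also cell type markers, and the genes that overlap a member were named in addition.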

Additional observations from a re-analysis of the deposited data

How the results depend on the processing

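The 5 genes called (1 higher, 4 lower) kept these counts with DESeq2, limma-voom, no filter, upper-quartile scaling, the replicate block and each library left out. Scaling to the endothelial markers changed them to 0 higher and 7 lower. There Hras (-0.83), Map2k2 (-0.87) and Mapk3 (-0.42) reversed, 13 pathway genes were called higher and 69 lower, and over all genes 1043 were higher and 10370 lower. By limma on log2(FPKM + 1), Nras no longer passed (-0.08, adjusted p = 0.52) and Hras did (0.21, adjusted p = 0.0451).

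With each library left out in turn, 6996 to 8018 genes were called (3852 to 4333 higher, 3121 to 3685 lower), and 51 to 57 pathway genes were higher and 14 to 20 lower. Log2 fold changes ran from 0.17 to 0.26 for Hras, -0.61 to -0.39 for Nras, -0.34 to -0.30 for Araf, -0.86 to -0.73 for Braf, -0.31 to -0.26 for Map2k1, 0.11 to 0.24 for Map2k2 and 0.53 to 0.72 for Mapk3. The log2 differences in paralog ratio ran from -0.87 to -0.57, -0.53 to -0.41 and 0.37 to 0.50. From FPKM values these differences were -0.31 (Nras to Hras) and -0.23 (Braf to Araf), with overlap between groups, and 0.46 (Map2k2 to Map2k1) without overlap.

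Saline and PD mice share only a replicate number. Deviations from the group means of same-numbered libraries correlated at 0.10, 0.04 and -0.17, and libraries did not all correlate best with their own number. With the replicate block, 7909 genes were called (4242 higher, 3667 lower), and the block changed no call among the 7 genes.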
